A study of Mus musculus with 21 samples.

Results

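Macrophages of the resting mouse heart that lack the chemokine receptor Ccr2 were compared by their content of MHC class II. R2, the Ccr2-negative MHC-II-high population, was set against R1, the Ccr2-negative MHC-II-low population, in naive C57BL/6 mice. The comparison uses 6 of the 21 RNA-seq libraries of the series, 3 of each population, chosen by their labels alone. The cells were sorted from 3 separate pools of naive mice, each of which gave 1 R1 and 1 R2 library, read here as those with the same replicate number. The sources used here do not give the number, age or sex of the mice in a pool, and no allele or agent is named for the naive groups. The other libraries are naive R3 (Ccr2-positive, MHC-II-high), splenic monocytes (Ccr2-positive) of naive mice, and R1, R2 and R3 of mice challenged with CAWS, a water-soluble extract of Candida albicans used as a model of Kawasaki disease. All 21 shared in the estimate of the spread, and the R1 and R2 libraries of CAWS-challenged mice served for the same contrast in other animals.

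Macrophages seeded before birth persist in the heart largely without input from blood monocytes, and such cells are commonly recognised by the receptors Timd4, Lyve1 and Folr2 and by the absence of Ccr2. They clear dying cells and debris, take up glycated and haemoglobin-bound ligands through scavenger receptors, and produce growth factors. MHC class II molecules are surface dimers that show peptides from ingested material to CD4+ T cells. Their transcription depends on the coactivator CIITA, which does not bind DNA itself but joins proteins sitting on conserved promoter elements called the X box and the Y box. The Y box holds an inverted CCAAT sequence bound by the factor NF-Y, and the X box is bound by RFX proteins.

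The MHC class II promoters are shown because the genes they drive were among those that separated R2 from R1 most. Of the 11 genes listed for this pathway, 8 had a window in the RefSeq promoter table (GRCm38.p6), each window covering 300 bases of which 250 lie before the start of the gene. The stretches below are 5' to 3' on the strand of the gene, on chromosome 17. Capitals mark GNAAC, letters from the core of the X box, and GATTGG, the Y box.
H2-Eb1 (chr17:34305767-34305820, plus strand): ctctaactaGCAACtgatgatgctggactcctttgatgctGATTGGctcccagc
H2-Eb2 (chr17:34325534-34325587, plus strand): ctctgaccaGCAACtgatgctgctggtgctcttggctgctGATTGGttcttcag
H2-Aa (chr17:34287859-34287912, minus strand): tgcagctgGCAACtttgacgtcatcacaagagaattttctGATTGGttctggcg
H2-Ob (chr17:34238807-34238860, plus strand): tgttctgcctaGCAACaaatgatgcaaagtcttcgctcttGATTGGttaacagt
H2-Oa (chr17:34092295-34092348, plus strand): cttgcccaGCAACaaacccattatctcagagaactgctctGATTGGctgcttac
H2-DMb1 (chr17:34153089-34153142, plus strand): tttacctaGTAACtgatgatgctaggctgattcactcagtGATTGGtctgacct
H2-DMb2 (chr17:34145118-34145171, plus strand): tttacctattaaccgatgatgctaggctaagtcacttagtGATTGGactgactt
Searched on both strands, GATTGG occurred in all 8 of these genes and in 16.1% of the 32851 promoter windows of the same length. GNAAC beginning 29 to 32 bases before GATTGG, a spacing chosen after these sequences were seen, occurred in 6 of the 8 and in 0.234% of all windows. The motifs do not overlap at this spacing. The other 2 had GATTGG without a GNAAC at that distance: H2-DMb2, the near copy of H2-DMb1, shown above, and H2-DMa, not shown, whose GATTGG lay 199 bases before the start. A match of letters is a description of the promoter and not evidence of a bound factor.

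Total counts ran from 14140007 to 18980257 reads in the naive R1 libraries and from 18013289 to 23006155 in the naive R2 libraries. Of 13275 genes tested, 946 (7.13%) passed edgeR's quasi-likelihood test between R2 and R1 at a Benjamini-Hochberg adjusted p under 0.05. Of these, 515 were higher in R2 (3.88% of genes tested) and 431 were lower (3.25%), and 232 and 183 of them differed by 2-fold or more. The 3 libraries of R2 and the 3 of R1 did not overlap for 936 of the 946, against 3640 (27.4%) of all genes tested. Within pools, 514 of the 515 were higher in R2 in 3 of 3 pools. Of the 431, 429 were lower in 3 of 3. These genes were picked by a test on the same libraries, so the agreement between pools was largely fixed by that choice. It is no separate replication. The count of genes past the test fell to 606 without R1 replicate 3, to 591 without R2 replicate 1 and to 611 without R2 replicate 2. Values below are CPM, read counts scaled to a common library size after TMM adjustment, given for replicates 1, 2 and 3, and fold changes are log2 of R2 over R1 with their standard error. In libraries of many cells, fewer cells of a type and less RNA per cell cannot be told apart.

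**Figure D1:**
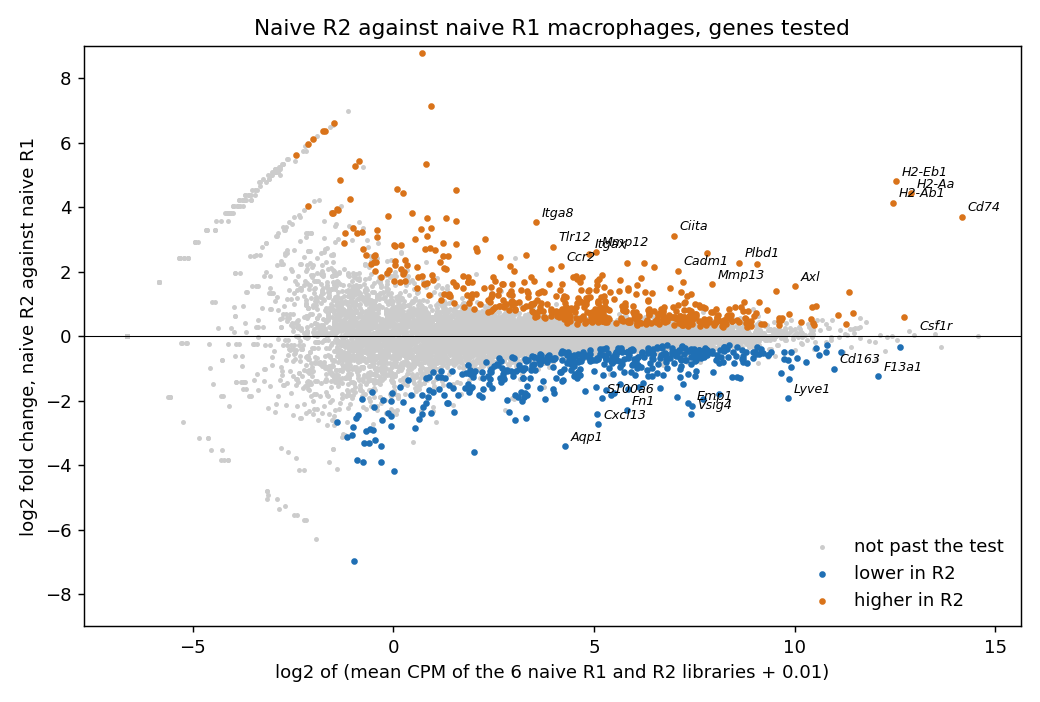
Each point is 1 of the 13275 genes tested: the horizontal axis is the log2 mean CPM of the 6 naive R1 and R2 libraries and the vertical axis is the log2 fold change of naive R2 against naive R1. Orange marks the 515 genes higher and blue the 431 lower in R2, with the MHC class II genes H2-Eb1, H2-Aa, H2-Ab1 and Cd74 at the upper right and Aqp1 and Cxcl13 among the lowest named genes.

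Both populations carried the RNA of macrophages at close levels. Csf1r, on which macrophages depend as the receptor of M-CSF, measured 7931, 8167 and 7725 CPM in R1 and 8508, 7963 and 7923 CPM in R2 and the groups overlapped (log2 fold change 0.03 ± 0.09, adjusted p = 0.909). C1qa, a chain of complement C1q, overlapped as well (-0.01 ± 0.18, adjusted p = 0.988). Adgre1, which encodes F4/80, measured 2056, 2182 and 1984 CPM in R1 and 2528, 2391 and 2209 CPM in R2, a small difference that did not pass the test (adjusted p = 0.265). Mertk, a receptor for dying cells, gave -0.26 ± 0.13 (adjusted p = 0.273). Fcgr1, the high-affinity IgG receptor, gave 0.29 ± 0.11 (adjusted p = 0.138; 0.0449 with the pool as a block). Of the 18 core macrophage genes, 2 rose in R2, the fractalkine receptor Cx3cr1 and the leukocyte phosphatase Ptprc, and 0 fell. With the pool as a block and only naive R1 and R2 fitted, 8 rose and 4 fell, among them Adgre1 (0.19, adjusted p = 0.0117), Mertk (-0.26, adjusted p = 0.0243; 0.0429 without the block) and the integrin chain Itgam (-0.41, adjusted p = 1.24e-05). Their median was 0.133, against 0.00 for all genes tested, and their summed level was 39600 to 42900 CPM in R1 and 42400 to 44300 CPM in R2.

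MHC class II RNA was higher in the population sorted for MHC class II protein, so its direction is a check of the labels and not a finding. H2-Eb1, a beta chain of the peptide-binding dimer (gene ID 14969, chromosome 17, 34305867 to 34316674 of GRCm38.p6), measured 386, 551 and 286 CPM in R1 and 11267, 12564 and 10492 CPM in R2. Every R2 library was far above every R1 library (log2 fold change 4.81 ± 0.44, adjusted p = 3.25e-06). H2-Aa, an alpha chain, measured 624, 919 and 492 CPM in R1 and 14743, 15661 and 13429 CPM in R2 (4.43 ± 0.43). H2-Ab1, its partner, measured 583, 782 and 449 CPM in R1 and 10631, 11579 and 9628 CPM in R2 (4.13 ± 0.33). Cd74, the invariant chain that guides these dimers to the endosome, measured 2488, 3269 and 2035 CPM in R1 and 34072, 36167 and 31507 CPM in R2 (3.71 ± 0.25). Per kilobase of the deposited gene length, the level of Cd74 ranked 1 among the genes tested in R2 and 18 in R1, that of H2-Aa 3 and 63, that of H2-Ab1 6 and 86, and that of H2-Eb1 7 and 217. The 11 genes together took 6.60% to 7.58% of all counts in the R2 libraries and 0.371% to 0.615% in the R1 libraries. In R1, replicate 2 held the most and replicate 3 the least of these 4 genes.

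Ciita, the coactivator itself (gene ID 12265, chromosome 16, 10480014 to 10531064 of GRCm38.p6), measured 27.6, 31.4 and 19.6 CPM in R1 and 197, 266 and 216 CPM in R2, with no overlap (3.11 ± 0.19, adjusted p = 1.04e-09). H2-DMa and H2-DMb1, which load peptide onto the dimers in the endosome, had smaller fold changes than the chains. H2-DMa measured 177, 229 and 153 CPM in R1 and 870.4, 955 and 791 CPM in R2 (2.23 ± 0.21), and H2-DMb1 gave 2.57 ± 0.22. H2-Ob, which restrains that loading, measured 8.76, 10.4 and 11 CPM in R1 and 35.8, 37.2 and 36.6 CPM in R2, the smallest difference of the list (1.87 ± 0.24). The remaining members were scarce. H2-Eb2 had 12 reads over the 3 R1 libraries and 350 over the 3 R2 libraries, and its log2 fold change of 4.54 ± 0.46 became 6.46 without R1 replicate 2, which held 10 of the 12 reads, and 3.83 without R1 replicate 1. H2-Oa had 18 and 280 reads; its 3.65 ± 0.91 (adjusted p = 0.0162) became 5.22 without R1 replicate 2. The call of H2-Oa was lost without R1 replicate 1 (adjusted p = 0.0858), R1 replicate 3 (0.0716) or R2 replicate 2 (0.0537) and with limma voom (0.265). H2-DMb2 gave 2.65 ± 0.56 (adjusted p = 0.00439; 0.156 with limma voom), and reads may be shared with its near copy H2-DMb1. All 11 members rose in R2 in edgeR's test, with a median of 3.65, and 9 of 11 did with limma voom.

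**Figure D2:**
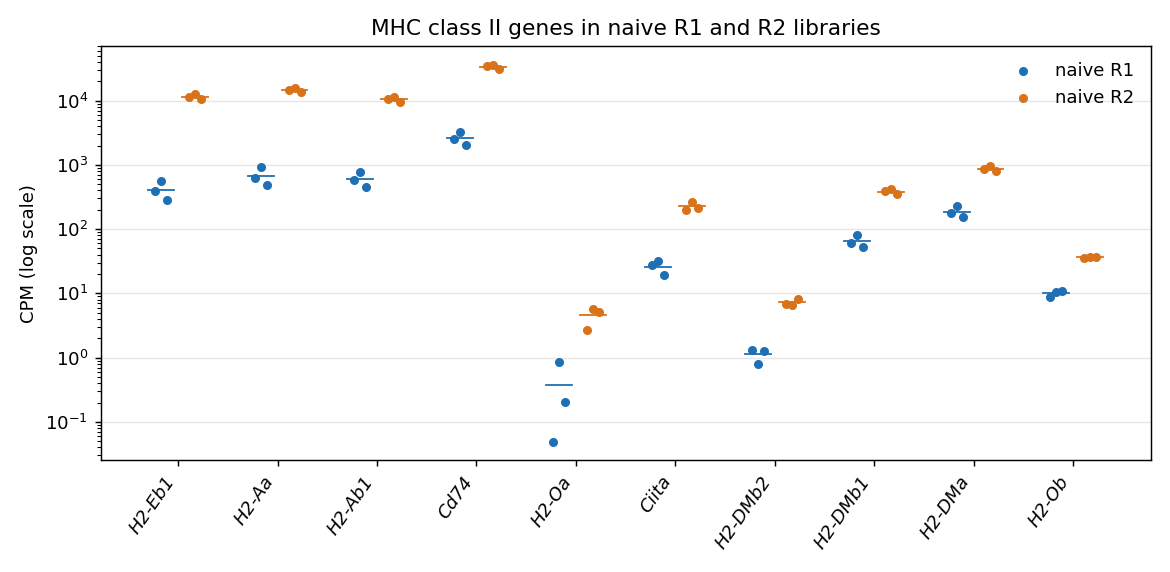
CPM on a log axis for 10 MHC class II genes in the 3 naive R1 (blue) and 3 naive R2 (orange) libraries, with a bar at each mean; H2-Eb2 is left out because 1 R1 library held no read. The R2 points lie above the R1 points for every gene drawn, and the gap is widest for the chains and narrowest for H2-Ob.

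MHC class I genes showed only small differences. All 17 genes of class I loading and the immunoproteasome had a positive fold change, with a median of 0.189, but only the peptide transporter Tap1 passed the test (148, 136 and 132 CPM in R1 and 225, 220.5 and 166 CPM in R2; 0.55 ± 0.12, adjusted p = 0.00374). With the pool as a block and only naive R1 and R2 fitted, 8 of the 17 rose. Of the 27 interferon-gamma-induced genes, 5 rose and 0 fell: Ciita, Tap1, the chemokine Cxcl9 (1.63 ± 0.25), the transcription factor Irf8 (0.73 ± 0.13) and the receptor chain Ifngr2 (0.57 ± 0.10). Of the 30 type I interferon-stimulated genes, 0 passed with edgeR, DESeq2 or limma voom, and 1 had an unadjusted p under 0.05 in edgeR. Among 17 costimulation genes, 4 rose and 1 fell. Icosl, the ligand of the T cell receptor ICOS, measured 99.5, 83.8 and 78.3 CPM in R1 and 157, 174 and 154 CPM in R2 (0.89 ± 0.14, adjusted p = 0.000191), and Icam1, the adhesion partner of LFA-1, gave 0.64 ± 0.11. Cd276 gave 0.75 ± 0.14, and the gene that fell was Vsig4, a complement receptor that also restrains T cells.

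The markers of long-lived resident heart macrophages pointed the other way, lower in R2. Lyve1, the hyaluronan receptor (gene ID 114332, chromosome 7, 110850607 to 110862953 of GRCm38.p6), measured 1460.0, 1296 and 1562 CPM in R1 and 345, 314 and 481 CPM in R2 with a wide gap between the groups (-1.92 ± 0.31, adjusted p = 0.000665). Timd4, a receptor for phosphatidylserine on dying cells, measured 225, 200.2 and 248 CPM in R1 and 92.7, 89.2 and 117 CPM in R2 (-1.17 ± 0.25, adjusted p = 0.00592). Folr2, the folate receptor beta, measured 1185, 1358 and 1443 CPM in R1 and 490.4, 465 and 627 CPM in R2 (-1.33 ± 0.32, adjusted p = 0.014). The groups did not overlap for Folr2, but its call was lost with DESeq2 (adjusted p = 0.0525) and without R1 replicate 3 (0.0519), R2 replicate 1 (0.0649) or R2 replicate 2 (0.0711). Vsig4 showed the largest fall of the list, with 334, 212 and 322 CPM in R1 and 68, 37.6 and 54.7 CPM in R2 (-2.43 ± 0.22, adjusted p = 1.32e-07). F13a1, a subunit of clotting factor XIII, gave -1.25 ± 0.20, and Ltc4s, leukotriene C4 synthase, gave -1.60 ± 0.22.

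Of the 22 resident markers, 14 fell and 0 rose, 21 had a negative fold change, and the median was -1.12. The count was 8 without R1 replicate 3, 7 without R2 replicate 1, 8 without R2 replicate 2 and 9 with no filter on low counts. Mrc1 (5588, 5707 and 5565 CPM in R1 and 4108, 3954 and 4232 in R2, adjusted p = 0.287) and Selenop (12271, 14742 and 16017 and 10945, 11159 and 12186, adjusted p = 0.304) did not overlap between the groups yet did not pass. The summed level of the list was 41200 to 47300 CPM in R1 and 25900 to 29200 CPM in R2. For comparison, naive R3, the Ccr2-positive cells, averaged 236 ± 148 CPM of Lyve1, 64 ± 33 of Timd4 and 309 ± 212 of Folr2 (SD, n = 3). Splenic monocytes averaged 0.731 ± 0.707, 0.617 ± 0.707 and 1.08 ± 0.883 CPM of the same genes.

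**Figure D3:**
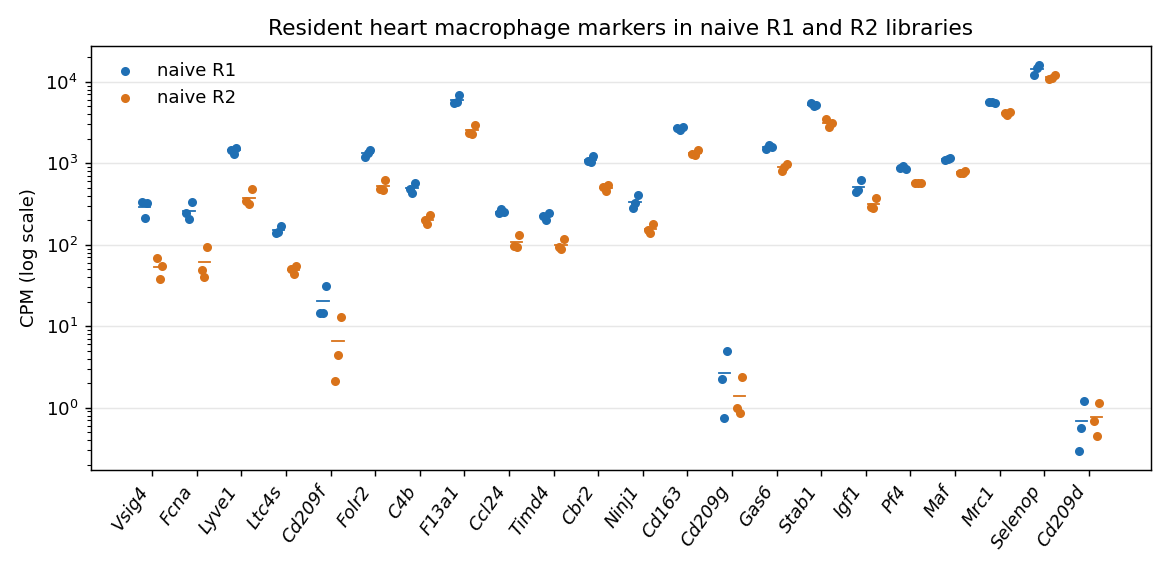
CPM on a log axis for 22 resident heart macrophage markers in the 3 naive R1 (blue) and 3 naive R2 (orange) libraries, with a bar at each mean, ordered by fold change from the most negative. The R2 points lie below the R1 points for the genes on the left, such as Vsig4, Fcna and Lyve1, and the populations overlap for Cd209g and Cd209d.

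Receptors and bridging proteins for dying cells divided between the populations. Axl, a receptor tyrosine kinase that binds dying cells through Gas6 (gene ID 26362, chromosome 7, 25756500 to 25788924 of GRCm38.p6), measured 567, 533 and 461 CPM in R1 and 1677, 1556 and 1355 CPM in R2 (1.56 ± 0.14, adjusted p = 1.42e-07). Its ligand Gas6 went the other way, with 1509.7, 1658 and 1585 CPM in R1 and 807, 909 and 979.7 CPM in R2 (-0.82 ± 0.19, adjusted p = 0.00852). Pros1, protein S, which bridges dying cells to Mertk and related kinases, gave -0.34 ± 0.09 (adjusted p = 0.018). The call of Pros1 was lost without any single library other than R1 replicate 1 (adjusted p from 0.0526 to 0.0881) and with no filter (0.0707). Of 23 members, 3 rose (Axl and the integrin chains Itgav and Itgb5) and 3 fell (Timd4, Gas6 and Pros1). The calls of Itgav and Itgb5 were marginal (adjusted p = 0.046 and 0.0475), and when each of the 6 libraries was left out in turn 1 member rose. Without R2 replicate 1, 1 member fell.

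Among scavenger receptors and iron genes, the largest changes were falls. Colec12, a scavenger receptor for oxidised lipid and sugars, measured 381, 413 and 482 CPM in R1 and 105, 106 and 158 CPM in R2 (-1.79 ± 0.31, adjusted p = 0.00113). Cd163, the receptor for haemoglobin bound to haptoglobin, measured 2722, 2573 and 2781 CPM in R1 and 1287, 1269 and 1442 CPM in R2 (-1.01 ± 0.19, adjusted p = 0.00129). Cxcl16, a transmembrane chemokine that also binds oxidised lipoprotein, rose, with 288, 293 and 248 CPM in R1 and 546, 630.1 and 543 CPM in R2 (1.05 ± 0.10, adjusted p = 3.3e-07). Of 26 scavenger and endocytic receptors, 2 rose, 1 of them without R1 replicate 2, R1 replicate 3 or R2 replicate 1. The 3 that fell, or 6 with the pool as a block, were Lyve1, Colec12 and Cd163 in the main fit. The lists share members. Lyve1 and Cd163 are also resident markers, and Cd163 is also on the iron list. Timd4 and Gas6 (dying cells), Vsig4 and Fcna (complement) and Ccl24 (chemokine ligands) are resident markers too. Their falls are counted in more than 1 list.
Of 20 iron and heme genes, 5 fell and 1 rose, with a median of -0.347; 2 fell without R2 replicate 2. Hmox1, heme oxygenase, measured 206, 227 and 213 CPM in R1 and 138, 145 and 144 CPM in R2 (-0.60 ± 0.11, adjusted p = 0.00108). Slc11a1, the iron exporter of the phagosome, rose, with 369, 414 and 412 CPM in R1 and 677, 675 and 598 CPM in R2 (0.71 ± 0.09, adjusted p = 3.05e-05). The iron exporter of the cell surface, Slc40a1, fell from 555, 532 and 613 CPM to 238, 197 and 249 CPM (-1.31 ± 0.30, adjusted p = 0.00983).

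Of 26 leukocyte integrins and adhesion genes, 10 rose in R2, 0 fell and 16 did not pass, with a median of 0.524. The count was 6 without R1 replicate 3, and 1 of the 10, Epcam, rested on 37 reads in R2 and 0 in R1. Itga8, a matrix-binding integrin alpha chain outside that list (gene ID 241226, chromosome 2, 12106632 to 12301985 of GRCm38.p6), measured 0.841, 4.1 and 0.801 CPM in R1 and 17.4, 27.8 and 19.8 CPM in R2 (3.53 ± 0.39, adjusted p = 5.09e-06); R1 replicate 2 stood above the other R1 libraries, and without it the log2 fold change was 4.70. Itgax, the integrin CD11c, measured 13.5, 6.08 and 5.21 CPM in R1 and 53.4, 54.4 and 43.2 CPM in R2 (2.56 ± 0.27, adjusted p = 3.78e-06). Cadm1, a cell adhesion molecule of the immunoglobulin family (gene ID 54725, chromosome 9, 47530170 to 47862280 of GRCm38.p6), measured 54.5, 52.3 and 53.2 CPM in R1 and 209, 226 and 217 CPM in R2, with very little spread in either group (2.03 ± 0.12, adjusted p = 9.62e-10). Itga6, the laminin receptor chain, measured 165, 139 and 128 CPM in R1 and 238, 229 and 225 CPM in R2 (0.68 ± 0.13). Slamf7, a self-binding receptor of leukocytes, was among the 15 largest rises over all genes (17, 24.8 and 15.8 CPM in R1 and 80.2, 95.7 and 103 CPM in R2; 2.28 ± 0.19).

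The list of growth factors and matrix remodelling moved in both directions. Mmp13, a collagenase (gene ID 17386, chromosome 9, 7272514 to 7283333 of GRCm38.p6), measured 127, 134 and 101 CPM in R1 and 392, 365 and 352 CPM in R2 (1.61 ± 0.12, adjusted p = 4.57e-09). Mmp12, the macrophage elastase, measured 9.4, 13.4 and 4.74 CPM in R1 and 48.4, 65.3 and 57.2 CPM in R2 (2.62 ± 0.28, adjusted p = 4.37e-06). Mmp14, a membrane-bound collagenase, measured 8.27, 11.4 and 7.35 CPM in R1 and 29.4, 24.1 and 29.7 CPM in R2 (1.63 ± 0.20). None of these 3 overlapped between the groups, nor did 936 of all 946 genes past the test.
Growth factors of the list divided. Pdgfc, a platelet-derived growth factor, fell, with 73.4, 82.6 and 104 CPM in R1 and 26.9, 27.6 and 29.1 CPM in R2 (-1.63 ± 0.20, adjusted p = 1.43e-05). Its relative Pdgfb rose, with 123, 139.9 and 133 CPM in R1 and 240.1, 295 and 236 CPM in R2 (0.96 ± 0.13, adjusted p = 3.69e-05). Fn1, fibronectin, fell (110.5, 53.3 and 116 CPM in R1 and 25.8, 11.2 and 19.3 CPM in R2; -2.30 ± 0.41, adjusted p = 0.0017). Over the 33 genes of growth factors and matrix remodelling, 5 rose and 6 fell, and the median was -0.27. The number that fell was 3 without R1 replicate 2, R1 replicate 3 or R2 replicate 2, and 2 without R2 replicate 1.

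Chemokine ligands moved in both directions, while the chemokine receptors that changed rose. Cxcl13, the ligand that draws B cells, measured 52.4, 29.2 and 98.4 CPM in R1 and 6.19, 5.57 and 14.8 CPM in R2 (-2.73 ± 0.45, adjusted p = 0.000471). The R1 libraries differed widely among themselves, and the call was lost with only the groups compared (adjusted p = 0.098); without R2 replicate 3 the log2 fold change was -3.34. Cxcl14 rose (16.5, 14 and 11 CPM in R1 and 45.5, 33.6 and 33.3 CPM in R2; 1.43 ± 0.18), and Cxcl9, the ligand of Cxcr3 on T cells, rose from a low level (3.66, 2.86 and 3.21 CPM in R1 and 9.58, 9.16 and 11.5 CPM in R2). Of 23 ligands, 4 rose (Cxcl16, Cxcl14, Cxcl9 and Ccl17) and 6 fell (Cxcl13, Ccl8, Ccl24, Ccl7, Ccl9 and Ccl6). The number that fell was 4 without R1 replicate 2 or R2 replicate 3 and 2 without R1 replicate 3, R2 replicate 1 or R2 replicate 2. Ccl17 rested on 2 reads in R1 and 55 in R2, so no fold is given.
Cx3cr1 measured 1093, 1121 and 844 CPM in R1 and 2028, 1976 and 1841 CPM in R2 (0.93 ± 0.12, adjusted p = 2.49e-05). Ccr2, on whose protein both populations were gated as negative, was low in both, with 5.39, 8.94 and 5.41 CPM in R1 and 29, 20.2 and 38.7 CPM in R2 (2.17 ± 0.36, adjusted p = 0.000665). Of 13 chemokine receptors, 3 rose and 0 fell.

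Of 28 receptors and adaptors that recognise microbes, 6 rose in R2 and 1 fell. Tlr12 (gene ID 384059, chromosome 4, 128615446 to 128618619 of GRCm38.p6), a Toll-like receptor for a protein of protozoa, measured 5.05, 4.84 and 1.94 CPM in R1 and 29.6, 30.2 and 23.4 CPM in R2 (2.78 ± 0.26, adjusted p = 1.87e-07). Clec7a, dectin-1, which binds the beta-glucan of fungal walls, measured 360.1, 367 and 340.0 CPM in R1 and 767, 694 and 757 CPM in R2 (1.06 ± 0.12, adjusted p = 5.93e-06). Tlr9, the sensor of unmethylated CpG DNA, gave 1.02 ± 0.16, and Tlr1, a partner of Tlr2, gave 0.85 ± 0.12. Clec4d, a C-type lectin, fell (-1.90 ± 0.34).
Of 12 Fc receptor genes, 2 rose and 1 fell. Fcgr4, an activating receptor, measured 75.7, 65.2 and 45.3 CPM in R1 and 195, 188 and 141 CPM in R2 (1.49 ± 0.28, adjusted p = 0.00189). Fcgrt, which recycles IgG, measured 1239.6, 1272 and 1412 CPM in R1 and 853, 778 and 829 CPM in R2 (-0.67 ± 0.13, adjusted p = 0.0021). Fcrla, the other that rose, averaged 0.0825 CPM in R1 and 0.748 CPM in R2. Its call was lost without R1 replicate 2, R1 replicate 3, R2 replicate 1 or R2 replicate 3. It was also lost with limma voom (adjusted p = 0.0513), no filter (0.0555) and the older edgeR fit (0.054). With only the groups compared it was lost too (0.0857, and 0.08 with the pool as a block). Of 22 complement genes, 7 fell and 1, Itgax, rose. Cfp, properdin, which stabilises the alternative pathway convertase, measured 531, 441 and 620.0 CPM in R1 and 234, 169.9 and 252 CPM in R2 (-1.28 ± 0.18, adjusted p = 5.65e-05). C1ra, a protease of the classical pathway, gave -0.70 ± 0.17, and Fcna, a ficolin, measured 244, 205 and 336 CPM in R1 and 49.4, 39.9 and 95.1 CPM in R2 (-2.08 ± 0.57, adjusted p = 0.0372). The number of complement genes that fell was 4 without R1 replicate 1, 3 without R1 replicate 3, 2 without R2 replicate 1 or R2 replicate 2, and 4 with no filter; the call of Fcna was lost under 8 of the 16 alternatives.

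Of 26 genes of inflammatory cytokines and the interleukin-1 pathway, 4 rose and 0 fell. Il1b, the cytokine interleukin-1 beta (gene ID 16176, chromosome 2, 129364569 to 129371164 of GRCm38.p6), measured 40, 14.4 and 22.8 CPM in R1 and 164, 80.1 and 131 CPM in R2 (2.26 ± 0.45, adjusted p = 0.00468). The groups did not overlap, the spread within each was wide, and the call was lost with only the groups compared (adjusted p = 0.0611). Il1r2, the decoy receptor for interleukin-1, measured 0.594, 1.06 and 0.668 CPM in R1 and 3.75, 4.89 and 4.27 CPM in R2 (2.48 ± 0.38, adjusted p = 0.000184), and Il10ra, a receptor chain for interleukin-10, gave 0.48 ± 0.09. The interleukin-1 receptor Il1r1 passed too (2.20 ± 0.64), but the call depended on the setting. It was lost without any single library other than R1 replicate 3 (adjusted p from 0.0636 to 0.176) and with the older edgeR fit (0.11). It was also lost with only the groups compared (0.0719), and with the pool as a block as well (0.0575). Without R1 replicate 3 the value was 5.57. Tnf overlapped between the groups (-0.06 ± 0.27, adjusted p = 0.953). Of 23 NF-kB response genes, 1 rose, Icam1, and 0 fell. Of 27 immediate early genes, which respond quickly to handling and stimulation, 3 rose and 2 fell; 1 rose without R1 replicate 1 and 0 without R1 replicate 3 or R2 replicate 2. Of 18 heat shock genes 0 passed with edgeR, DESeq2 or limma voom, and 1 had an unadjusted p under 0.05 in edgeR.

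Transcription factors of the macrophage lineage changed in both directions. Runx3 measured 37.9, 28.6 and 22.9 CPM in R1 and 85.9, 80.9 and 85.9 CPM in R2 (1.49 ± 0.23, adjusted p = 0.000206). Irf8, which directs monocyte and dendritic cell development, measured 185, 216 and 159.9 CPM in R1 and 285, 336 and 311 CPM in R2 (adjusted p = 0.000508). Klf4 measured 105, 109.7 and 126 CPM in R1 and 42.7, 45.3 and 56.4 CPM in R2 (-1.24 ± 0.24, adjusted p = 0.00233), and Tfec gave -1.37 ± 0.26. Of 32 factors, 5 rose and 4 fell. The groups did not overlap for any of the 9, nor for 936 of all 946 genes past the test. Of 18 alternative activation genes, 2 rose and 2 fell; 0 rose without R1 replicate 3 or R2 replicate 2, and 4 fell without R2 replicate 3 or with the pool as a block. Of 20 glycolysis genes, 2 rose and 1 fell; 0 rose without R1 replicate 1. Mycl, a relative of Myc that dendritic cells express, was among the largest rises (3.41, 2.42 and 2.8 CPM in R1 and 18.3, 18.3 and 13.4 CPM in R2; 2.51 ± 0.22).

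Lysosomal enzymes moved in both directions. Ctss, the cathepsin that trims the invariant chain from MHC class II, measured 2197, 2171 and 1954 CPM in R1 and 3832, 3472 and 3092 CPM in R2 (0.72 ± 0.11, adjusted p = 0.000251). Ctsd, the aspartic protease cathepsin D, measured 1252, 1247 and 1303 CPM in R1 and 695, 598 and 676 CPM in R2 (-0.95 ± 0.14, adjusted p = 7.49e-05). Psap, the precursor of the saposins, gave 0.58 ± 0.09. Of 35 members, 4 rose and 5 fell, and 2 to 3 fell when each library was left out in turn. Plbd1, a phospholipase B-like enzyme of the lysosome (gene ID 66857, chromosome 6, 136612071 to 136662303 of GRCm38.p6), lies outside the list and had a larger change than any member (131, 153 and 117 CPM in R1 and 627, 698 and 609 CPM in R2; 2.27 ± 0.15, adjusted p = 2.57e-09).
In sterol and fatty acid synthesis 7 of 27 genes rose and 0 fell, with a median of 0.358. Most of the changes were small. Srebf2, the factor that switches on cholesterol synthesis, measured 179, 192 and 176 CPM in R1 and 284, 249.6 and 245 CPM in R2 (0.51 ± 0.12, adjusted p = 0.0109), and Sc5d, an enzyme near the end of the pathway, gave 0.55 ± 0.13. The count was 2 without R1 replicate 3 or R2 replicate 1. Among 29 lipid-associated macrophage genes, 4 rose, among them the tetraspanin Cd9 (0.82 ± 0.12), and 5 fell, among them Anxa2; 3 fell without R1 replicate 1, R2 replicate 2 or R2 replicate 3. In the cell cycle list 1 of 30 genes rose, Ccnd2, cyclin D2 (0.90 ± 0.16), and 2 fell, Ccnb2 and Ccne1. The 2 became 1 without R1 replicate 1 or R1 replicate 3 and 0 without R2 replicate 1 or R2 replicate 2.

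**Figure D4:**
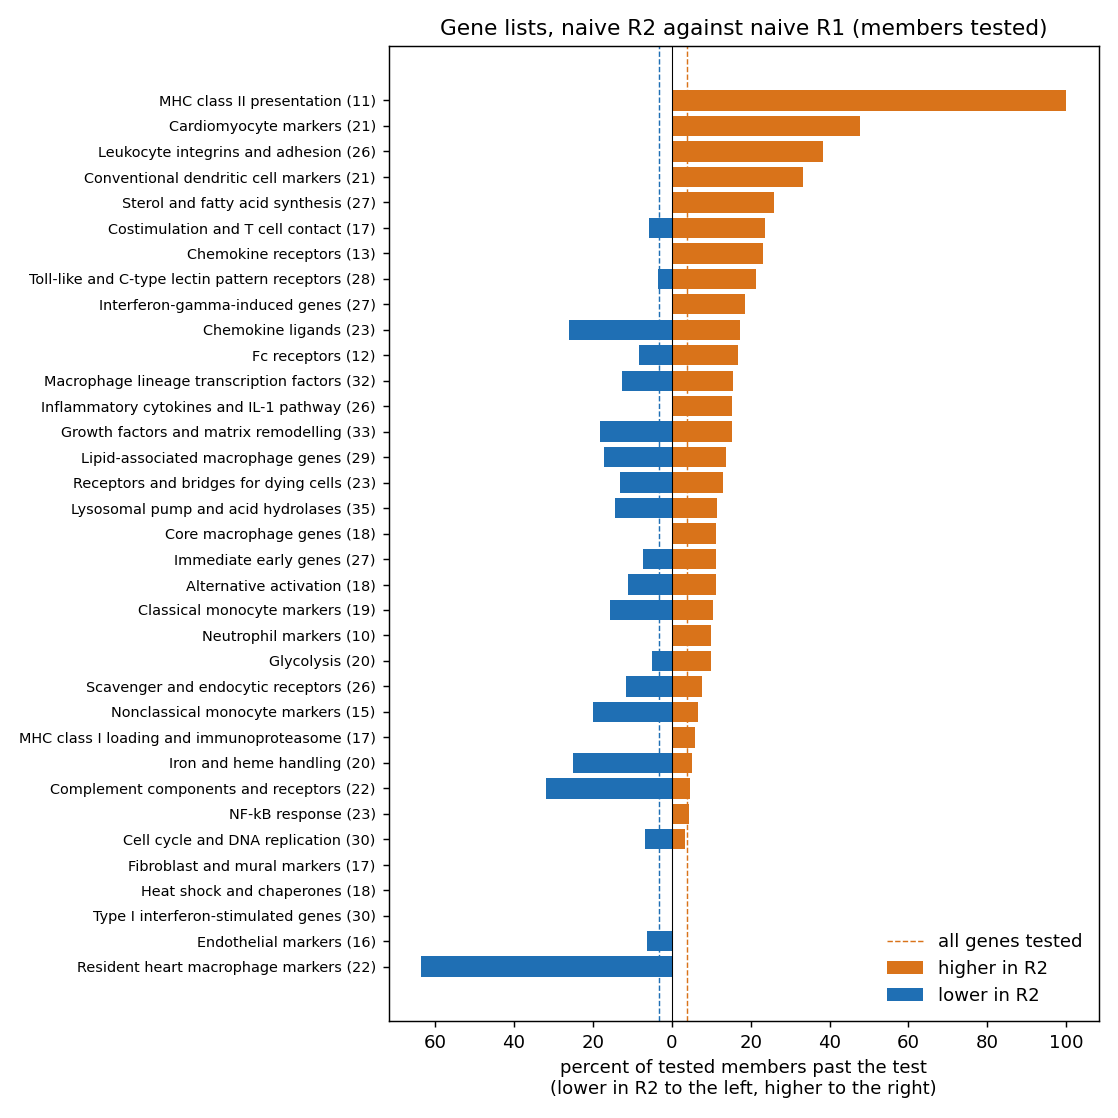
Horizontal bars give the percent of tested members of each gene list that were higher (orange, right) or lower (blue, left) in naive R2 than in naive R1, for lists with at least 10 tested members; the number tested stands in parentheses and dashed lines mark all genes tested (3.88% higher, 3.25% lower). MHC class II presentation has 11 of 11 members higher and resident heart macrophage markers 14 of 22 lower.

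Several of the largest falls lay outside these lists. Aqp1, a water channel (gene ID 11826, chromosome 6, 55336299 to 55348555 of GRCm38.p6), measured 33.3, 33.5 and 40 CPM in R1 and 2.71, 3.64 and 3.61 CPM in R2, the largest fall by the rule used here (-3.42 ± 0.22, adjusted p = 1.13e-09). Emp1, a membrane protein of the tetraspan type, measured 235, 274 and 335 CPM in R1 and 56.9, 64 and 68.1 CPM in R2 (-2.16 ± 0.16, adjusted p = 1.08e-08). Fgfr1, a receptor for fibroblast growth factors, measured 176, 199.7 and 255 CPM in R1 and 49.5, 50.6 and 70.1 CPM in R2 (-1.89 ± 0.23, adjusted p = 1.74e-05). None of these 3 overlapped between the groups, which the rule for naming them required. Gypc, glycophorin C, a membrane sialoglycoprotein, measured 55.9, 66.9 and 78.5 CPM in R1 and 15.9, 16.9 and 23.1 CPM in R2 (-1.84 ± 0.28, adjusted p = 0.000242). Gprc5b, an orphan receptor, gave -2.55 ± 0.28, and Rgs7bp, which binds a regulator of G proteins, gave -1.95 ± 0.26. Ednrb, the endothelin B receptor, gave -1.94 ± 0.50 (adjusted p = 0.0263), a call lost without R1 replicate 3 (adjusted p = 0.0945), R2 replicate 1 (0.1) or R2 replicate 2 (0.118) and with only the groups compared (0.0748).

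Markers of other cells were followed in the same libraries. Of 21 cardiomyocyte genes tested, 10 rose in R2 and 0 fell, with a median of 0.8. Mb, myoglobin, measured 17.6, 18.2 and 15.2 CPM in R1 and 44.7, 31.4 and 39.9 CPM in R2 (1.19 ± 0.16, adjusted p = 2.2e-05), and Tnni3, cardiac troponin I, measured 5.2, 3.72 and 4.81 CPM in R1 and 18.1, 12.3 and 13.3 CPM in R2 (1.66 ± 0.23). The summed level of the 22 listed genes was 312 to 352 CPM in R1 and 419 to 501 CPM in R2; Mb averaged 37.2 ± 0.306 CPM in naive R3 and 0.0856 ± 0.0443 CPM in splenic monocytes (SD, n = 3). In CAWS-challenged mice 0 of the 21 passed between R2 and R1 with edgeR, DESeq2 or limma voom (5 at an unadjusted p under 0.05 in edgeR), and the median was 0.325. For the R2 against R1 difference in CAWS minus that in naive mice, 0 of the 21 passed with these 3 tools. In edgeR, 10 had an unadjusted p under 0.05. Fibroblast and mural markers (of 17, 0 with edgeR, 1 each with DESeq2 and limma voom, 3 at an unadjusted p under 0.05 in edgeR; 333 to 387 CPM in R1 and 374 to 404 CPM in R2) and endothelial markers (0 higher and 1 lower of 16; 1270 to 1530 CPM and 1140 to 1280 CPM) were followed in the same way. Among the mural genes the contractile genes Acta2 (4.95, 0.621 and 1.74 CPM in R1 and 15.5, 9.5 and 16.4 CPM in R2; 2.42 ± 0.86, adjusted p = 0.117) and Tagln (1.39 ± 0.71, adjusted p = 0.313) did not overlap between the groups. Both passed with only the groups compared (adjusted p = 0.00427 and 0.000832), and Acta2 passed with DESeq2 (0.0177). The part of heart muscle RNA in the differences was not tested.

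Dendritic cell markers rose in part, and monocyte markers moved in both directions. Of 21 conventional dendritic cell genes tested, 7 rose and 0 fell, 17 had a positive fold change, and the median was 1.45. The number that rose was 11 with DESeq2 and 5 to 7 when each library was left out in turn. The summed level of the 22 listed was 882 to 958 CPM in R1 and 1370 to 1450 CPM in R2. Cadm1, Itgax, Mycl and Irf8, which macrophages can also express, were among the 7, and in CAWS mice 15 of the 21 rose. Clec9a, a receptor of dendritic cells for dead cells, had 1 read over the 3 R1 libraries and 237 over the 3 R2 libraries (3.58 to 4.10 CPM in R2). The defining genes Flt3 and Zbtb46 were both scarce and went opposite ways. Flt3 had 30 reads in R1 and 183 in R2 (2.31 ± 0.89, adjusted p = 0.152). In CAWS mice Flt3 gave 2.96 ± 0.44 (adjusted p = 0.000618). Zbtb46 had 366 reads in R1 and 241 in R2 (-0.90 ± 0.31, adjusted p = 0.0969). In CAWS mice Zbtb46 gave 0.41 ± 0.29 (adjusted p = 0.613). The part of dendritic cells in the differences was not tested.
Of 19 classical monocyte genes, 2 rose, Ccr2 and Ms4a4c, and 3 fell, Fn1, S100a4 and Mgst1. Ms4a4c was lost without R1 replicate 2, R1 replicate 3, R2 replicate 1 or R2 replicate 2. S100a4, a calcium-binding protein, measured 62.9, 78.5 and 68 CPM in R1 and 16.9, 23.7 and 20.7 CPM in R2 (-1.78 ± 0.36, adjusted p = 0.00453), against a mean of 1614 ± 995 CPM in splenic monocytes. Its relative S100a6 gave -1.92 ± 0.26 (58.1, 54.3 and 60.4 CPM in R1 and 14.6, 16.9 and 14.2 CPM in R2). The list summed to 279 to 354 CPM in R1 and 167 to 194 CPM in R2. Ace, the angiotensin-converting enzyme and a marker of nonclassical monocytes, measured 76.8, 56.7 and 35.9 CPM in R1 and 14.5, 12 and 5.68 CPM in R2 (-2.41 ± 0.63, adjusted p = 0.0286), and its call was lost without any single library other than R1 replicate 3. Of 15 nonclassical monocyte genes, 1 rose, Cx3cr1, and 3 fell, of which 1 did without R2 replicate 1 and 5 did with the pool as a block.

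Lymphocyte and granulocyte markers were present at differing levels. The T cell genes Cd8a, Lat, Trbc1 and Trbc2 had no read in any of the 6 libraries, and the 13 listed T cell genes summed to 28.9 to 34.8 CPM in R1 and 36.1 to 42.6 CPM in R2. Most of that sum was Cd4 (33.0, 29.9 and 28.4 CPM in R1 and 40.8, 35.3 and 41.2 CPM in R2). Cd2 averaged 0.752 CPM in R1 and 0.779 CPM in R2. Of the 3 T cell genes tested, 0 passed with edgeR, DESeq2 or limma voom, also at an unadjusted p under 0.05 in edgeR. The 12 NK genes summed to 0.993 to 2.40 CPM in R1 and 3.92 to 4.61 CPM in R2; of 7 tested, 0 passed with edgeR or limma voom, 1 with DESeq2 and 1 at an unadjusted p under 0.05 in edgeR. The 14 listed B and plasma cell genes summed to 720 to 748 CPM in R1 and 745 to 819 CPM in R2, and the 13 neutrophil genes to 229 to 350 CPM and 172 to 328 CPM. Of 9 B cell genes tested, 2 rose: Cd79b (1.08 ± 0.23) and Ms4a1, which had 5 reads in R1 and 143 in R2, of which 110 were in replicate 1. Without R1 replicate 1, R1 replicate 2, R1 replicate 3 or R2 replicate 1, 1 of the 2 passed. Cd79a, with 9 and 84 reads, missed the threshold (adjusted p = 0.0624) and passed it with the pool as a block (0.0147). Among neutrophil genes Camp, Ly6g and Ngp were at 0 in all 6 libraries, and 1 of 10, Csf3r, rose (0.45 ± 0.12), a call lost without R1 replicate 2, R1 replicate 3, R2 replicate 1 or R2 replicate 3. Of 7 mast cell, basophil and eosinophil genes tested, Siglecf rose and Tpsb2 fell, with 47 reads in R1, 34 of them in replicate 3, and 0 in R2; its call was lost without R1 replicate 3 (adjusted p = 0.181), R2 replicate 1 (0.102), R2 replicate 2 (0.087) or R2 replicate 3 (0.0908). Of 7 platelet and erythroid genes 0 passed with edgeR or DESeq2, 1 with limma voom and 1 at an unadjusted p under 0.05 in edgeR. The listed genes summed to 856 to 950 CPM in R1 and 582 to 592 CPM in R2. Most of that sum was Pf4 (873, 932 and 842 CPM in R1 and 579, 567 and 577 CPM in R2). Pf4 is also on the list of resident heart macrophage markers. Of 7 plasmacytoid dendritic cell genes 1, Tcf4, fell (-0.43 ± 0.13, adjusted p = 0.0429); the call was lost when any 1 of the 6 libraries was left out, with no filter and with the older edgeR fit. The part of these cells in the differences was not tested.

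The same contrast was made in CAWS-challenged mice, whose R1 and R2 libraries share no sample with the naive ones. There 501 of 13275 genes (3.77%) passed the test, 327 higher in R2 (2.46%) and 174 lower (1.31%). Of the 515 genes higher in naive R2, 493 (95.7%) had a positive fold change in CAWS mice, against 49.3% of all genes tested, and of the 431 lower in naive R2, 410 (95.1%) had a negative one. Past the test in both and higher were 162 genes, which is 31.5% of the naive list and 49.5% of the CAWS list. Past the test in both and lower were 143, or 33.2% of the naive and 82.2% of the CAWS list. Ccne1, cyclin E1, passed in both with opposite signs. The CAWS count ran from 230 to 444 when each CAWS library was left out in turn, with 242 without CAWS R1 replicate 1, 281 without CAWS R1 replicate 3 and 230 without CAWS R2 replicate 2.

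The MHC class II genes were higher in R2 in 11 of 11 cases in CAWS mice, with a median of 2.74. R2 and R1 are told apart by MHC class II protein, so this direction too is a check of the labels and not a finding. H2-Eb1 gave 3.13 ± 0.40 there, Cd74 2.64 ± 0.24 and Ciita 2.10 ± 0.18, each below its naive value. Of the resident markers 5 of 22 fell in CAWS mice, with a median of -0.702: Lyve1 gave -1.36 ± 0.31 (adjusted p = 0.0178), Vsig4 -1.36 ± 0.21 and Timd4 -0.72 ± 0.26 (adjusted p = 0.16). The R2 against R1 difference in CAWS minus that in naive mice was tested as well. Of these 11 MHC class II genes, 0 passed with edgeR or limma voom and 1 with DESeq2. In edgeR, 7 had an unadjusted p under 0.05. Of the 22 resident markers 0 passed with any of the 3 tools, and 1 had an unadjusted p under 0.05 in edgeR.

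Whether R2 and R1 differed to another extent in CAWS than in naive mice was tested as a contrast of contrasts. Of 13275 genes, 7 passed (0.0527%), against 702 at an unadjusted p under 0.05, and 15 passed with the pool as a block. They were Anxa1, Anxa2, Cadm1, Mpeg1, Hpse, Cd300lg and Ccne1. Anxa1, annexin A1, a protein that damps leukocyte recruitment, averaged 90.4 ± 4.8 CPM in naive R1 and 39.3 ± 1.4 CPM in naive R2 (SD, n = 3), and 151 ± 20.2 and 149.7 ± 8.16 CPM in CAWS R1 and R2. Cadm1 averaged 79.9 ± 9.08 CPM in CAWS R1 and 151 ± 14 CPM in CAWS R2, a smaller gap than in naive mice. The count ran from 1 to 12 when each of the 12 libraries was left out in turn; it was 1 without naive R1 replicate 3 or CAWS R2 replicate 2. Leaving out naive R2 gave 2 (replicate 1) and 3 (replicate 2), and leaving out CAWS R1 gave 4 (replicate 1) and 12 (replicate 2).

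**Figure D5:**
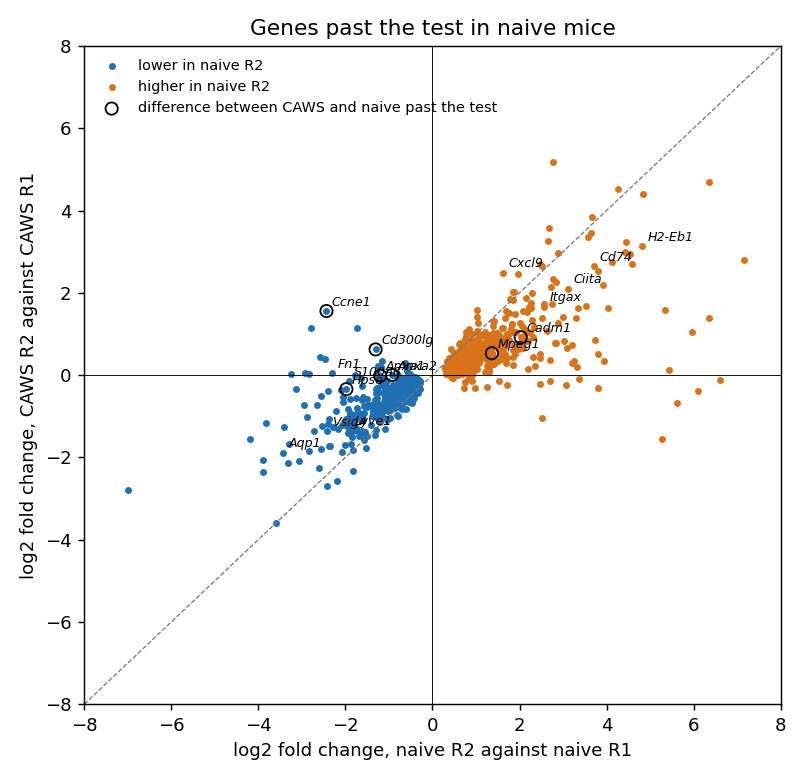
Each point is 1 of the 946 genes past the test in naive mice: the horizontal axis is its log2 fold change of R2 against R1 in naive mice and the vertical axis the same in CAWS-challenged mice, with the dashed line at equal values. Orange points are higher and blue points lower in naive R2, and black circles mark the 7 genes whose difference between CAWS and naive passed the test, with Anxa1 and Anxa2 near 0 on the vertical axis and Ccne1 above it.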

How the data were processed

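RNA was extracted from sorted cells with RNeasy Plus Mini kits and made into TruSeq RNA libraries, per the labels' protocols. The authors deposited raw read counts per gene, from featureCounts on mm10 per the submitters' processing notes. The sources used here give neither the strand setting nor the annotation release, so reads of overlapping, antisense or near-identical genes may be shared. Symbols and coordinates came from a RefSeq table of GRCm38.p6, which matched 25275 of 27179 gene IDs.

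Counts were fitted with edgeR 4.0.16 (R 4.3.3; quasi-likelihood test, TMM scaling, filterByExpr with a minimum count of 10) on all 21 libraries in 7 groups, with Benjamini-Hochberg adjustment over 13275 genes and a threshold of 0.05. Between 12800136 and 23006155 reads per library were counted. The standard error is the log2 fold change divided by the root of F. Replicates are separate pools of mice. The main fit has no pool term, and its p-values measure the spread between libraries within groups, shared over the 7 groups. They do not measure the spread of the R2 against R1 difference between the naive pools. Alternatives were DESeq2 1.42.0, limma 3.58.1 voom, other scalings and filters, the older edgeR fit, only the groups compared, a pool block, and each library left out in turn.

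Replicate numbers were read as pools because the series' design has each pool divided into R1, R2 and R3. Deviations from the group means of same-numbered R1 and R2 libraries correlated at 0.0332 to 0.0967 over all genes and at 0.221 to 0.449 over the 5021 genes averaging a log2 CPM of 5 or more, against -0.283 to 0.0433 for different numbers.

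Genes to name were the 15 with the largest change in each direction among those past the threshold whose groups do not overlap and whose higher group averages a log2 CPM of 4 or more, gene models and pseudogenes aside; all MHC class II genes; up to 4 members of each other list with the smallest p; and Ccr2, Adgre1, Csf1r, Mertk, Fcgr1, Timd4, Lyve1 and Folr2. The text prints those of the lists it describes; other list members are not reported here. Members and lists were chosen with earlier results of these data known. C1qa, Mrc1, Selenop, Itgav, Itgb5, Slc40a1, Pdgfb, Ccl6, Ccl7, Ccl8, Ccl9, Clec4d, Tnf, Ms4a4c, Flt3, Zbtb46 and the genes among the other observations were chosen after their values were seen.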

Additional observations from a re-analysis of the deposited data

Results flagged for a closer look

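For 7 genes the log2 difference of R2 against R1 was itself different in CAWS and in naive mice by edgeR's quasi-likelihood test of that difference (Benjamini-Hochberg adjusted). The values are CAWS minus naive. Anxa1 had 1.18 ± 0.17 (adjusted p = 0.00579), from -1.20 ± 0.12 in naive to -0.02 ± 0.12 in CAWS mice, and its relative Anxa2 had 0.93 (adjusted p = 0.026), from -0.93 ± 0.12 to 0.00 ± 0.12. Both were lower in R2 in 3 of 3 naive pools, the same libraries that the test used. Cadm1 had -1.11 (adjusted p = 0.00839), from 2.03 ± 0.12 to 0.92 ± 0.12. Mpeg1, which encodes the pore-forming protein perforin-2 of macrophages, had -0.833 (adjusted p = 0.026), from 1.36 ± 0.11 to 0.53 ± 0.11. It measured 1578, 1591 and 1219.5 CPM in naive R1 and 4060.4, 3834 and 3400.2 CPM in naive R2. Hpse, heparanase, had 1.64 (adjusted p = 0.026), from -1.98 ± 0.22 to -0.34 ± 0.17. Cd300lg, a receptor of the CD300 family, had 1.93 (adjusted p = 0.0188), from -1.31 ± 0.22 to 0.62 ± 0.23; it measured 16.7, 30.7 and 23.6 CPM in naive R1 and 9.8, 9.67 and 9.08 CPM in naive R2. Ccne1 had 3.99 (adjusted p = 0.026) but rested on 46 reads in naive R1 and 10 in naive R2.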

How the results depend on the processing

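The number of genes past the threshold between naive R2 and R1 was 946, and 1524 with only the groups compared, 1915 with the replicate block and only the groups compared, and 591 to 801 when each library was left out in turn. With the replicate block on all libraries it was 1055, and the block moved Fcgr1, Cd79a, Traf1, Pira2, Hspbp1 and Mcpt4 past the threshold and no other gene of the naming rule across it. The block took iron gene rises, NF-kB rises, Fc receptor falls, glycolysis falls and mast cell marker falls from 1 to 2 each, and heat shock falls from 0 to 1. In CAWS mice 501 became 790 with limma voom, 782 with only the groups compared, 1435 with the replicate block as well, and 230 to 444 when each library was left out. For the R2 against R1 difference in CAWS minus that in naive mice, 7 became 57 with DESeq2 and 14 with no filter. The count was 12 with the older edgeR fit, 22 with limma voom and 33 with only the groups compared. It was 15 with the replicate block and 174 with the block and only the groups compared. It ran from 1 to 12 when each library was left out. The cause of these changes was not tested. The share of calls higher in R2 was 54.4%, and 51.4% to 61.1% under the alternatives. Of the 114 named genes past the threshold, 82 kept their call under all 16 alternatives, 32 lost it under at least 1 and 0 changed sign. With only the groups compared, 11 iron and heme genes fell. Genes with few reads moved most: Fcrla gave 2.89 and 6.71 without R1 replicate 1, Fads2 1.83 and 2.44 without it, and Ccne1 -2.44 and -3.07 without R2 replicate 3. Depth limited Clec9a, Ccl17, Ms4a1, Tpsb2 and Epcam, for which reads and no fold are given.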

Other observations

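Genes known from microglia, the resident macrophages of the brain, were looked up after their values were seen. Tmem119, a membrane protein used to mark microglia, measured 39.7, 34.3 and 26.2 CPM in naive R1 and 151, 167 and 125 CPM in naive R2, with no overlap (log2 fold change 2.14 ± 0.16, edgeR adjusted p = 1.44e-08). Tgfbr1, a receptor chain for TGF-beta, measured 395, 402 and 429 CPM in R1 and 1083, 1148 and 1010.5 CPM in R2 (1.40 ± 0.15, adjusted p = 2.03e-06). Olfml3, an extracellular protein, gave 0.68 ± 0.13, while the ADP receptor P2ry12 went the other way (-0.45 ± 0.09, adjusted p = 0.0037). Fcrls (-0.39 ± 0.15), Siglech (-0.31 ± 0.24) and Gpr34 (-0.02 ± 0.18) did not pass the test. These genes did not move in 1 direction.

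Of the small calcium-binding and annexin genes, several fell in naive R2. S100a10, the partner of annexin A2, measured 112, 113 and 126 CPM in R1 and 59.3, 57.2 and 58.2 CPM in R2 (-1.005 ± 0.19, adjusted p = 0.00134). S100a4, S100a6, Anxa1 and Anxa2 fell as well, and Anxa4 gave -0.49 ± 0.11 (adjusted p = 0.00766). S100a11 (-0.20 ± 0.20), Anxa3 (-0.08 ± 0.17) and Anxa5 (-0.07 ± 0.10) did not pass the test. In CAWS mice S100a4 gave -0.01 ± 0.33 and S100a6 -0.15 ± 0.23.

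Other genes were picked singly after their values were seen. Egfr, the epidermal growth factor receptor, fell, with 31.7, 33.2 and 36.7 CPM in R1 and 10.8, 12.5 and 17.8 CPM in R2 (-1.29 ± 0.25, adjusted p = 0.00151), and Gfra2, a co-receptor for neurturin, measured 43, 43.4 and 61.9 CPM in R1 and 14.8, 11.9 and 22.6 CPM in R2 (-1.57 ± 0.25, adjusted p = 0.00026). Lag3, which binds MHC class II, rose, with 12.7, 9.93 and 12.8 CPM in R1 and 43.7, 33.3 and 36.7 CPM in R2 (1.68 ± 0.20, adjusted p = 7.96e-06). Dnase1l3, a DNase that digests DNA of dead cells, measured 9.5, 12.2 and 10.7 CPM in R1 and 32.9, 40.4 and 37.7 CPM in R2 (1.78 ± 0.23, adjusted p = 1.89e-05).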
